A study of Homo sapiens with 15 samples.

Results

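The expression of 10 genes of the epidermal growth factor receptor (EGFR) family was described in HCC95, an established cell line of human lung squamous cell carcinoma (LUSC). The genes were chosen by name from the 61544 genes of the deposited count table, with earlier results of these data known. They were the receptors EGFR, ERBB2 and ERBB3, the ligands AREG, EREG, HBEGF, TGFA, BTC and EPGN, and the inhibitor ERRFI1, and each name matched 1 gene. RNA-seq had been performed on cells given a small interfering RNA (siRNA), a short double-stranded RNA that directs the cleavage of a matching mRNA. The groups were siNC1, a negative control siRNA, and siKLF5b, siTP63b, siSOX2b and siGRHL2a, each directed at the transcription factor in its name, with 3 libraries in each of the 5 groups. No other treatment or allele is given in the sample labels. A group stands for a single siRNA in a single cell line, the time of collection for RNA is not given in the sources used here, and the labels do not say whether the 3 libraries came from separate cultures. The p-values measure the spread between libraries within groups, pooled over the 5 groups in 1 fit, and this spread may be technical. The p of siKLF5b against siNC1 thus rests in part on the spread in the other 3 groups.

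EGFR, ERBB2 and ERBB3 are receptor tyrosine kinases that signal in pairs. EGFR binds the ligands named above. ERBB3 binds some of the neuregulins, such as NRG1, and has little kinase activity of its own. ERBB2 has no known ligand and serves as a partner of the others. The ligands are made as membrane-bound precursors and are released by proteases such as ADAM17, and the activated receptors signal through RAS and the kinase ERK, whose output genes include phosphatases and other proteins that damp the same pathway. In squamous epithelium this family supports the growth of basal cells, and EGFR is often abundant in squamous carcinomas.

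Library totals were 15655495 to 34229063 raw counts, so that 3 counts, used here as the floor, correspond to 0.0876 to 0.192 CPM (counts scaled to a library of 1000000). The deposited columns carry names of 2 forms, one shared by siNC1 and siKLF5b (6 libraries) and one shared by siTP63b, siSOX2b and siGRHL2a (9 libraries). Among genes with 20 to 500 counts, 49.7% to 50.7% of counts were even numbers in the first set and 66.1% to 69.0% in the second. Whether reads or fragments were counted is not given in the sources used here. If both mates of a pair were counted in the second set, its counts, totals and floor would stand for fewer fragments than the numbers printed, and halved counts were therefore among the alternatives. The set and the knockdown cannot be told apart between these sets, so siKLF5b was compared with siNC1, and the other 3 knockdowns were compared with each other. A difference between 2 knockdowns says which was higher, not which departed from control cells. Each targeted gene was lowest in its own knockdown within its set. KLF5 had 71.8 to 73.8 CPM in siKLF5b and 107 to 123 CPM in siNC1. TP63 had 350 to 389 CPM in siTP63b and 647 to 862 CPM in the other 6 libraries of its set. SOX2 had 7.09 to 10.1 CPM in siSOX2b against 18.4 to 31.5 CPM, and GRHL2 had 90.8 to 91.9 CPM in siGRHL2a against 96.0 to 120 CPM, so the GRHL2 groups were separate by a small margin. In siNC1, which is in the other set, SOX2 had 66.8 to 80.9 CPM, GRHL2 134 to 136 CPM and TP63 662 to 692 CPM. This comparison across the sets was not tested. The cells carried the markers of their label. All 9 squamous markers, such as KRT5 and DSG3, and all 5 epithelial markers had at least 1 CPM in every library, with sums of 6410 to 12600 and 3070 to 4500 CPM. The sums were 2.56 to 11.2 CPM over 4 lung adenocarcinoma markers, 3.61 to 10 over 5 fibroblast markers, 21.5 to 39.8 over 3 leukocyte markers and 3.15 to 15 over 3 endothelial markers. Most of these came from NKX2-1, COL1A1, PDGFRB, CD68 and VWF, which also had at least 1 CPM in every library. SFTPC, DCN and CD3E had at most 2 counts in any library.

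Promoter sequences are given for EGFR, the most abundant receptor, and for AREG and ERRFI1, the ligand and the inhibitor with the largest differences that passed the test. They were taken from RefSeq on GRCh38.p14, where 9 of the 10 genes had an entry, and hold the 250 bases before the start of the gene, 5′ to 3′ on the strand of the gene. EGFR lies on the plus strand (chr7:55018767-55019016), AREG on the plus strand (chr4:74444886-74445135) and ERRFI1 on the minus strand (chr1:8026310-8026559). Capitals mark matches to the motifs listed after the sequences, on either strand (CCGCCC is GGGCGG read on the other strand).
EGFR: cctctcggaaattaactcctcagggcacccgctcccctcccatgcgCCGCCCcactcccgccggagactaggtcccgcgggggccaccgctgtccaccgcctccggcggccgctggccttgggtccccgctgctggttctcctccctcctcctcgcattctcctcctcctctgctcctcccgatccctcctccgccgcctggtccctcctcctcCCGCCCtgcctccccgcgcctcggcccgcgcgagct
AREG: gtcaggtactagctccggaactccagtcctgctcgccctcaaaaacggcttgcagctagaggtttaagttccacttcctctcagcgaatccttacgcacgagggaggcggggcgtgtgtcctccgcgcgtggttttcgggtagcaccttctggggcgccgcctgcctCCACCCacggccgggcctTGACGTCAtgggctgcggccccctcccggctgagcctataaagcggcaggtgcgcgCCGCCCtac
ERRFI1: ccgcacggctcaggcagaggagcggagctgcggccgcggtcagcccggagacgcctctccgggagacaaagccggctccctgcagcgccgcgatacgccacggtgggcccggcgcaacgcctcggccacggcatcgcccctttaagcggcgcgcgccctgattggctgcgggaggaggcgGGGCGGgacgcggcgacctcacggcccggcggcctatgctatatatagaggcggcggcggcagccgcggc
The capitals in EGFR and ERRFI1 are GC boxes (GGGCGG), of which EGFR had 2 and ERRFI1 had 1. AREG had 1 GC box, 1 CACCC box (CCACCC) and 1 cyclic AMP response element (TGACGTCA). A GC box was found in 5 of the 9 promoters, those of EGFR, AREG, HBEGF, TGFA and ERRFI1, and in 42.6% of the 35116 human promoter windows of the same length. The CACCC box, a motif to which KLF factors can bind, was found for AREG, TGFA and BTC and in 31.3% of all windows. The cyclic AMP response element was found for AREG alone and in 1.65% of all windows. The letters TGANTCA, a looser form of the AP-1 motif (TGACTCA or TGAGTCA), were found for ERBB2, as TGATTCA, and in 6.57% of all windows. The letters ATTGTT, a core to which SOX factors can bind, and AACCNGGTT, to which GRHL factors can bind, were found in 0 of the 9 and in 8.98% and 0.202% of all windows. The listed motifs do not overlap one another in the 3 sequences shown.

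In control cells EGFR stood above the rest of the family. Levels between genes were compared as CPM per kilobase of exon, with exon lengths from Gencode release 44, although the counts also include reads in introns. On that scale EGFR had 90.0 ± 2.0 (SD, n = 3) in siNC1, place 299 from the top among 15351 protein-coding genes tested, whose median was 3.65. ERRFI1 followed with 9.85 ± 0.324 CPM per kilobase, ERBB3 with 5.99 ± 0.388, ERBB2 with 4.29 ± 0.554, AREG with 4.0 ± 0.283, TGFA with 3.34 ± 0.151 and HBEGF with 2.58 ± 0.220. ERBB2, AREG and TGFA lay near the median gene on this scale. EGFR kept a level of at least 63.0 CPM per kilobase in each of the 5 groups, and was between places 223 and 478. On the exon scale the order below EGFR differed between groups. In siSOX2b the ligands TGFA and AREG, with 10.6 ± 1.03 and 9.03 ± 0.290 CPM per kilobase, lay above ERBB2 and ERBB3, with 6.15 ± 0.155 and 5.08 ± 0.242. The order below EGFR depends on the length used. Per kilobase of the whole span, a scale chosen after seeing the data, siNC1 had 7.45 ± 0.165 CPM of EGFR (place 900), 2.63 ± 0.170 of ERBB3, 1.88 ± 0.0619 of ERRFI1, 1.04 ± 0.135 of ERBB2, 0.665 ± 0.0472 of AREG, 0.560 ± 0.0478 of HBEGF and 0.154 ± 0.00695 of TGFA. On that scale TGFA, with 0.488 ± 0.0476 in siSOX2b, lay below ERBB3 and ERBB2, with 2.23 ± 0.106 and 1.49 ± 0.0377.

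**Figure D1:**
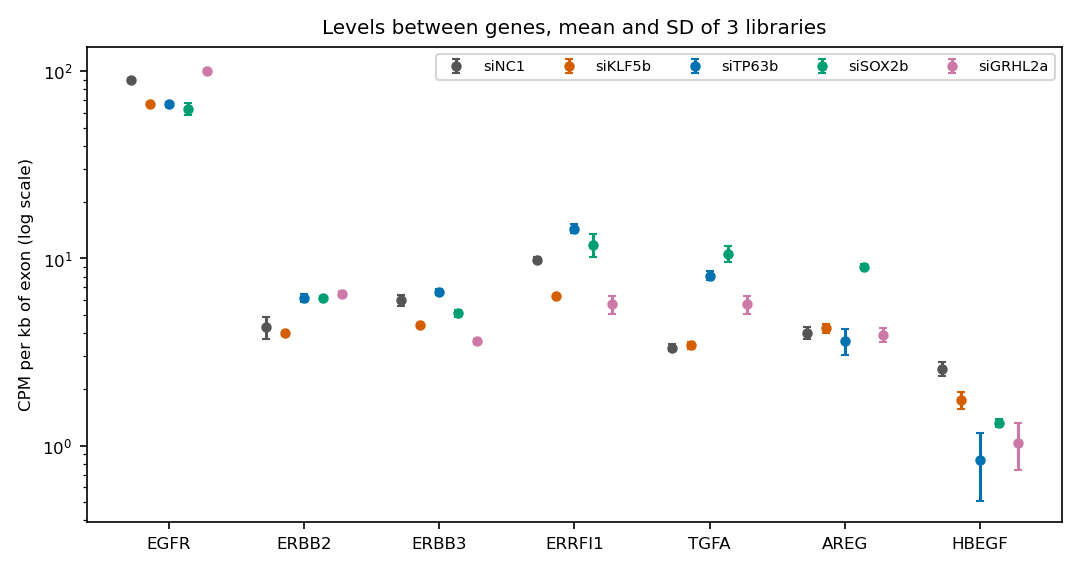
CPM per kilobase of exon (log scale) for 7 genes of the EGFR family in the 5 groups, with points for the mean and bars for the SD of 3 libraries. EGFR lies between 63.0 and 101 in every group, and the highest mean of another gene is 14.4, that of ERRFI1 in siTP63b.

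The other ligands were at or near the limit of detection. BTC, betacellulin (ENSG00000174808.12, minus strand), had counts of 5, 4 and 2 in siNC1, 6, 3 and 6 in siKLF5b, 10, 22 and 2 in siTP63b, 0, 0 and 12 in siSOX2b, and 6, 2 and 10 in siGRHL2a. Its highest value was 0.748 CPM. EREG, epiregulin (ENSG00000124882.4, plus strand), had counts of 1, 1 and 1 in siNC1, 0 in each library of siKLF5b, and at most 4 elsewhere. EPGN, epigen (ENSG00000182585.10, plus strand), had at most 4 counts in any library. In the 9 libraries of the other 3 knockdowns, all 16 of the counts above 0 of these 3 genes were even numbers, and in the 6 libraries of siNC1 and siKLF5b 4 of 12 were. EREG and EPGN did not pass the low-count filter and were not tested, and without the filter their adjusted p lay between 0.337 and 0.941 in the 4 comparisons. EPGN, EREG, AREG and BTC lie in that order in a stretch of 486 kb on chromosome 4 (74308470 to 74794523 of hg38) that holds 6 genes of the table. AREG was the gene of this stretch with the most counts, not scaled to length, in every library, with 116 to 502 counts.

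When KLF5 was targeted, both EGFR and ERBB3 RNA were lower than in control cells, and so was the RNA of the inhibitor ERRFI1. Of the 8 genes tested, 4 were lower in siKLF5b at an adjusted p below 0.05 (EGFR, ERBB3, HBEGF and ERRFI1), where 12.9% of the 25108 genes tested were lower, and 0 were higher, where 10.3% of all were. A differentially expressed gene (DEG) was taken to need, besides that p, an absolute log2 fold change (log2FC) above 0.75. Of the 8 genes, 0 were DEGs in either direction, where 1.37% of all genes were lower DEGs and 1.89% were higher DEGs. edgeR gave 4 lower and 0 higher at an unadjusted p below 0.05, and DESeq2, which gave an adjusted p for 7 of the 8, gave 0 DEGs and 4 lower at that p. The median log2FC of the 8 genes was -0.27, against -0.0097 over all genes. With bulk RNA, fewer cells of a type and less RNA per cell cannot be told apart.

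EGFR (ENSG00000146648.20, bases 55019017 to 55211628 of chromosome 7 of hg38, plus strand) had 1415, 1417 and 1471 CPM in siNC1 and 1076, 1085 and 1048 CPM in siKLF5b. Every siKLF5b library lay below every siNC1 library. The means were 1069 ± 19.0 and 1434 ± 31.9 CPM (SD, n = 3), which is 1.34-fold lower, with a log2FC of -0.42 (standard error 0.047, adjusted p = 3.39e-08 by the quasi-likelihood test of edgeR, adjusted by the Benjamini-Hochberg method). The antisense gene EGFR-AS1 overlaps EGFR and had 2.47% as many counts, and its log2FC was -0.49 (adjusted p = 9.97e-05, edgeR). Whether the counting used strand is not given in the sources used here, so reads of the EGFR pair cannot be told apart in the shared stretch. ERBB3 (ENSG00000065361.17, plus strand of chromosome 12 from 56076799 to 56103505) had 75.1, 69.1 and 66.2 CPM in siNC1 and 53.2, 51.8 and 50.7 CPM in siKLF5b, again without overlap. Its log2FC was -0.43 (standard error 0.059, adjusted p = 1.28e-06, edgeR). The last 2175 bases of ERBB3 are also part of the gene ENSG00000257411, which had 264% as many counts and a log2FC of -0.16 (adjusted p = 0.013, edgeR).

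ERBB2 (ENSG00000141736.14, plus strand of chromosome 17 from 39687914 to 39730426) did not pass the test. It had 50.8, 41.2 and 40.7 CPM in siNC1 and 40.9, 40.6 and 42.0 CPM in siKLF5b. The first siNC1 library was the high one, and the other 2 lay among the siKLF5b libraries. The log2FC was -0.11, with a 95% interval from -0.25 to 0.037 (adjusted p = 0.309, edgeR), and without the first siNC1 library it was 0.0025. PGAP3 and MIEN1 overlap ERBB2 on the other strand, with 13.1% and 13.0% as many counts. Their log2FC was 0.20 and -0.38 (adjusted p = 0.283 and 0.0668, edgeR).

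ERRFI1 (ENSG00000116285.13, minus strand of chromosome 1 from 8004404 to 8026309) encodes a protein that binds activated EGFR and ERBB2 and blocks their kinases. It had 40.9, 42.6 and 39.97 CPM in siNC1 and 26.3, 26.3 and 26.6 CPM in siKLF5b. The groups were far apart for their spread, at 41.2 ± 1.35 and 26.4 ± 0.187 CPM (SD, n = 3). The log2FC was -0.64 (standard error 0.085, adjusted p = 8.57e-07, edgeR), with a 95% interval from -0.82 to -0.47 that includes the limit of -0.75. This was the largest difference in size among the members that passed the test in siKLF5b. A long non-coding gene on the other strand had 1.05% as many counts as ERRFI1.

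Among the ligands of the member list, HBEGF, a heparin-binding growth factor, was the only one that passed the test in siKLF5b. HBEGF (ENSG00000113070.8, minus strand of chromosome 5 from 140332843 to 140346603) had 8.42, 7.13 and 7.55 CPM in siNC1 and 4.71, 5.26 and 5.79 CPM in siKLF5b. Its log2FC was -0.56 (standard error 0.19, adjusted p = 0.0297, edgeR). The groups did not overlap, but the call rested on few reads, from 91 to 190 counts per library. Without siNC1 replicate 1, siNC1 replicate 3, siKLF5b replicate 1 or siKLF5b replicate 2 the adjusted p was 0.114, 0.0557, 0.123 and 0.0766 (edgeR). AREG, amphiregulin (ENSG00000109321.11, plus strand of chromosome 4 from 74445136 to 74455005), had 6.92, 6.75 and 6.04 CPM in siNC1 and 6.91, 6.62 and 7.38 CPM in siKLF5b. The values overlapped, and the log2FC was 0.082, with a 95% interval from -0.18 to 0.34 (adjusted p = 0.717, edgeR). TGFA, transforming growth factor alpha (ENSG00000163235.16, minus strand of chromosome 2 from 70447284 to 70554193), had 15.6, 16.7 and 17.0 CPM in siNC1 and 16.7, 16.3 and 17.6 CPM in siKLF5b. It overlapped as well, with a log2FC of 0.036 and a 95% interval from -0.15 to 0.23 (adjusted p = 0.838, edgeR). BTC had a log2FC of 0.52, with an interval from -1.5 to 2.54 (adjusted p = 0.772, edgeR), too wide at its counts for a difference to be detectable.

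**Figure D2:**
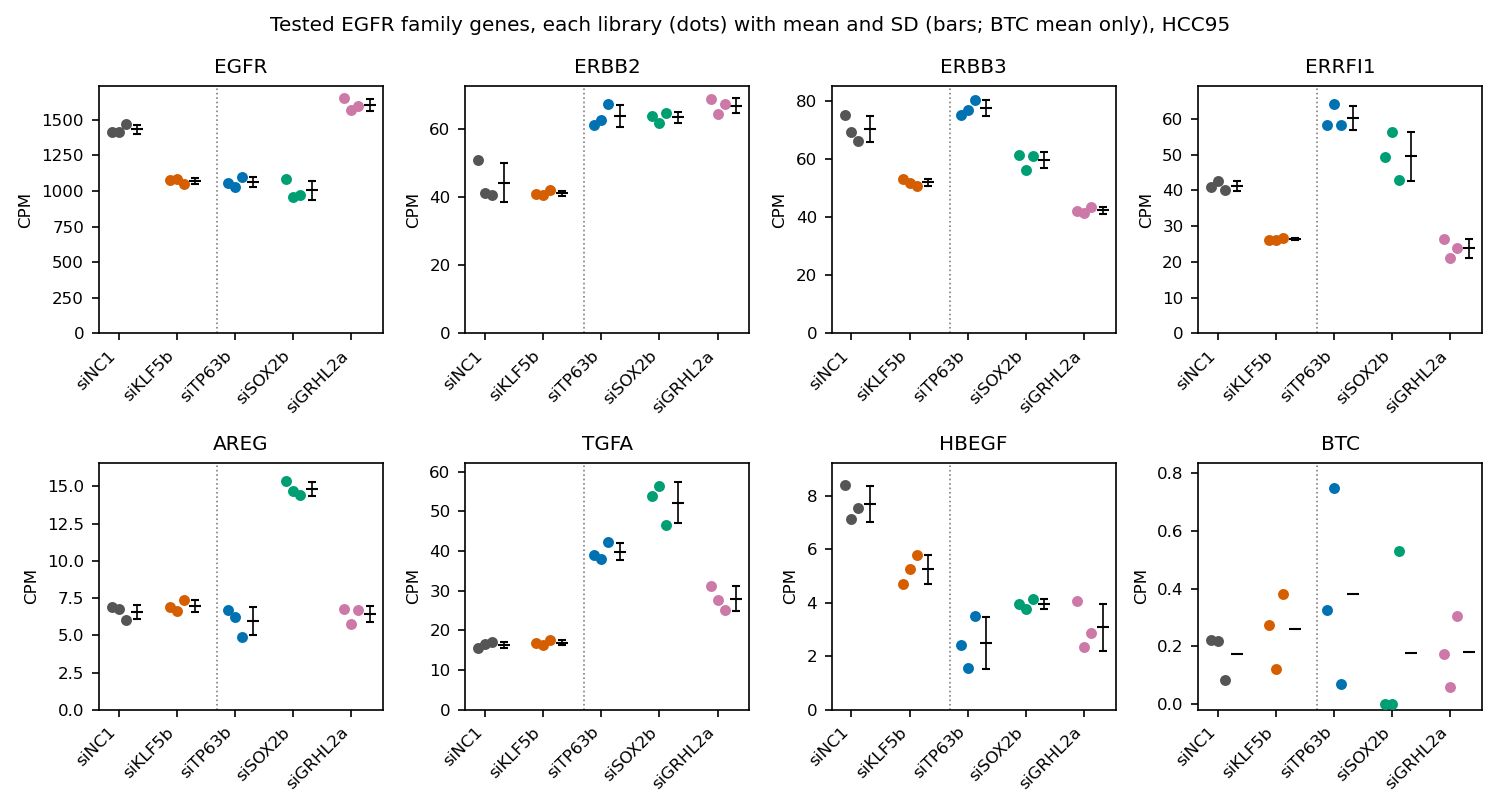
CPM of each of the 8 tested genes in each library (dots) of the 5 groups, with the mean and SD of 3 libraries beside them (the mean alone for BTC) and a dotted line between the 2 sets of columns. EGFR, ERBB3, ERRFI1 and HBEGF are lower in all 3 siKLF5b libraries than in all 3 siNC1 libraries, and AREG is highest in siSOX2b.

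Among siTP63b, siSOX2b and siGRHL2a, the family did not move as a block. EGFR was highest in siGRHL2a, ERBB3 and ERRFI1 were highest in siTP63b and lowest in siGRHL2a, and the ligands AREG and TGFA were highest in siSOX2b. Between siTP63b and siSOX2b, 1 of the 8 genes tested (AREG) was a lower DEG in siTP63b, where 2.82% of all genes were, and 0 were higher DEGs, where 3.88% of all were. By the adjusted p alone, 3 were lower and 2 were higher, beside 15.4% and 16.4% of all genes. Between siTP63b and siGRHL2a, 2 (ERBB3 and ERRFI1) were higher DEGs in siTP63b, where 2.18% of all genes were, and 0 were lower DEGs, where 3.21% of all were. By the adjusted p alone 3 were higher and 1 was lower, beside 13.6% and 13.4% of all genes. Between siSOX2b and siGRHL2a, 3 (AREG, TGFA and ERRFI1) were higher DEGs in siSOX2b, where 1.05% of all genes were, and 0 were lower DEGs, where 2.27% of all were. By the adjusted p alone 4 were higher and 1 was lower, beside 11.8% and 12.7% of all genes. For each of these 6 directions DESeq2 gave the same number of DEGs, with an adjusted p for 8, 8 and 7 of the 8 genes in the 3 comparisons. The counts at an unadjusted p below 0.05 in edgeR equalled those by the adjusted p. The median log2FC of the 8 genes was 0.044, 0.22 and 0.42 in the 3 comparisons, against 0.0006, -0.0090 and -0.018 over all genes. These comparisons share libraries pairwise and are not independent.

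The siTP63b libraries had 1058, 1031 and 1100 CPM of EGFR, those of siSOX2b had 1083, 958 and 972 CPM, and those of siGRHL2a had 1651, 1571 and 1594 CPM. All siGRHL2a libraries were above the other 6, which overlapped each other. EGFR was 1.51-fold lower in siTP63b than in siGRHL2a (log2FC -0.60, standard error 0.047, adjusted p = 1.63e-11, edgeR) and 1.60-fold lower in siSOX2b (log2FC -0.68, standard error 0.047, adjusted p = 2.82e-12, edgeR). Neither passed the 0.75 limit for a DEG. Between siTP63b and siSOX2b the log2FC was 0.081, with a 95% interval from -0.015 to 0.18 (adjusted p = 0.199, edgeR), and without siSOX2b replicate 1 it was 0.14 (adjusted p = 0.0308). EGFR-AS1 had a log2FC of -0.55 and -0.63 against siGRHL2a in siTP63b and siSOX2b, close in size to those of EGFR.

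ERBB3, a neuregulin receptor, gave an order in which no neighbours overlapped. Its CPM was 75.1, 76.7 and 80.3 in siTP63b, then 61.4, 56.3 and 60.9 in siSOX2b, and 42.0, 41.3 and 43.5 in siGRHL2a. It was 1.83-fold higher in siTP63b than in siGRHL2a (log2FC 0.87, standard error 0.057, adjusted p = 2.75e-13, edgeR), with a 95% interval from 0.76 to 0.99. The log2FC was 0.49 for siSOX2b against siGRHL2a (adjusted p = 9.90e-08, edgeR) and 0.38 for siTP63b against siSOX2b (adjusted p = 3.36e-06, edgeR). The overlapping gene ENSG00000257411 differed less, with a log2FC of 0.18, 0.31 and -0.14 in siTP63b against siGRHL2a, siSOX2b against siGRHL2a and siTP63b against siSOX2b. Thus EGFR was highest and ERBB3 lowest in the same group, siGRHL2a. For ERBB2 the CPM was 61.3, 62.7 and 67.4 in siTP63b, then 63.9, 61.7 and 64.8 in siSOX2b, and 68.7, 64.4 and 67.3 in siGRHL2a. Its groups overlapped in all 3 comparisons, and its log2FC was 0.0076, -0.066 and -0.074. The 95% intervals together spanned -0.21 to 0.14, and the adjusted p was 0.949, 0.493 and 0.448 (edgeR).

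AREG was the ligand with the largest differences among those tested at more than a few reads. The siSOX2b libraries had 15.3, 14.7 and 14.4 CPM of AREG, whereas siTP63b had 6.72, 6.25 and 4.91 CPM and siGRHL2a had 6.79, 5.79 and 6.73 CPM. All siSOX2b libraries were above the others. AREG was 2.48-fold lower in siTP63b than in siSOX2b (log2FC -1.31, standard error 0.12, adjusted p = 1.22e-10, edgeR) and 2.30-fold higher in siSOX2b than in siGRHL2a (log2FC 1.20, standard error 0.11, adjusted p = 1.46e-09, edgeR). Between siTP63b and siGRHL2a the values overlapped, with a log2FC of -0.11 and a 95% interval from -0.35 to 0.14 (adjusted p = 0.561, edgeR). The levels of AREG in siNC1 and siKLF5b, from 6.04 to 7.38 CPM, overlapped the range of siTP63b and siGRHL2a, from 4.91 to 6.79 CPM, and lay below siSOX2b, a comparison across the sets that was not tested.

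The CPM of TGFA was 39.0, 38.1 and 42.2 in siTP63b, then 53.8, 56.3 and 46.5 in siSOX2b, and 31.3, 27.7 and 25.1 in siGRHL2a. The 3 groups did not overlap. TGFA was 1.87-fold higher in siSOX2b than in siGRHL2a (log2FC 0.90, standard error 0.078, adjusted p = 3.30e-10, edgeR). It was 1.42-fold higher in siTP63b than in siGRHL2a (log2FC 0.50, adjusted p = 9.11e-06, edgeR) and 1.32-fold lower in siTP63b than in siSOX2b (log2FC -0.40, adjusted p = 0.000162, edgeR). HBEGF was low, at 2.41, 1.56 and 3.53 CPM in the libraries of siTP63b, at 3.97, 3.76 and 4.16 CPM in those of siSOX2b, and at 4.06, 2.35 and 2.88 CPM in those of siGRHL2a. The siTP63b libraries lay below those of siSOX2b, and siGRHL2a overlapped both. HBEGF was lower in siTP63b than in siSOX2b (log2FC -0.66, standard error 0.20, adjusted p = 0.0126, edgeR), but single libraries moved this value. Without siTP63b replicate 2 it was -0.42 (adjusted p = 0.117), and without siTP63b replicate 3 it was -0.99 (adjusted p = 0.000525), which made it a DEG. Against siGRHL2a the log2FC of HBEGF was -0.31 in siTP63b and 0.35 in siSOX2b (adjusted p = 0.284 and 0.207, edgeR). Without siTP63b replicate 3 the former was -0.62 (adjusted p = 0.0282), and without siGRHL2a replicate 1 the latter was 0.60 (adjusted p = 0.040). BTC did not pass in any of the 3 comparisons (adjusted p = 0.246, 0.356 and 0.864, edgeR). Its 12 counts in siSOX2b replicate 3 were its only reads in that group. Without that library BTC passed the test against siTP63b (log2FC 6.40, adjusted p = 0.00228) and siGRHL2a (log2FC -5.32, adjusted p = 0.0253), values set by a group at 0 that are no measure of size.

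ERRFI1 had the largest difference among the members that passed the test. The libraries of siGRHL2a had 26.4, 21.1 and 23.9 CPM, those of siSOX2b had 49.3, 56.4 and 42.8 CPM, and those of siTP63b had 58.4, 64.0 and 58.3 CPM. All siGRHL2a libraries were lowest, and siTP63b and siSOX2b were close but separate. ERRFI1 was 2.53-fold higher in siTP63b than in siGRHL2a (log2FC 1.34, standard error 0.081, adjusted p = 3.91e-14, edgeR) and 2.08-fold higher in siSOX2b than in siGRHL2a (log2FC 1.06, standard error 0.081, adjusted p = 2.18e-11, edgeR). Between siTP63b and siSOX2b its log2FC was 0.28 (adjusted p = 0.0058, edgeR), and without siSOX2b replicate 3 it was 0.18 (adjusted p = 0.0788). In siGRHL2a, the group with the most EGFR, there were 13.4 to 16.0 CPM of ERRFI1 for every 1000 CPM of EGFR, against 53.0 to 62.1 in siTP63b and 44 to 58.9 in siSOX2b. The same ratio was 27.2 to 30.1 in siNC1 and 24.2 to 25.4 in siKLF5b, where both genes were lower than in control cells.

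**Figure D3:**
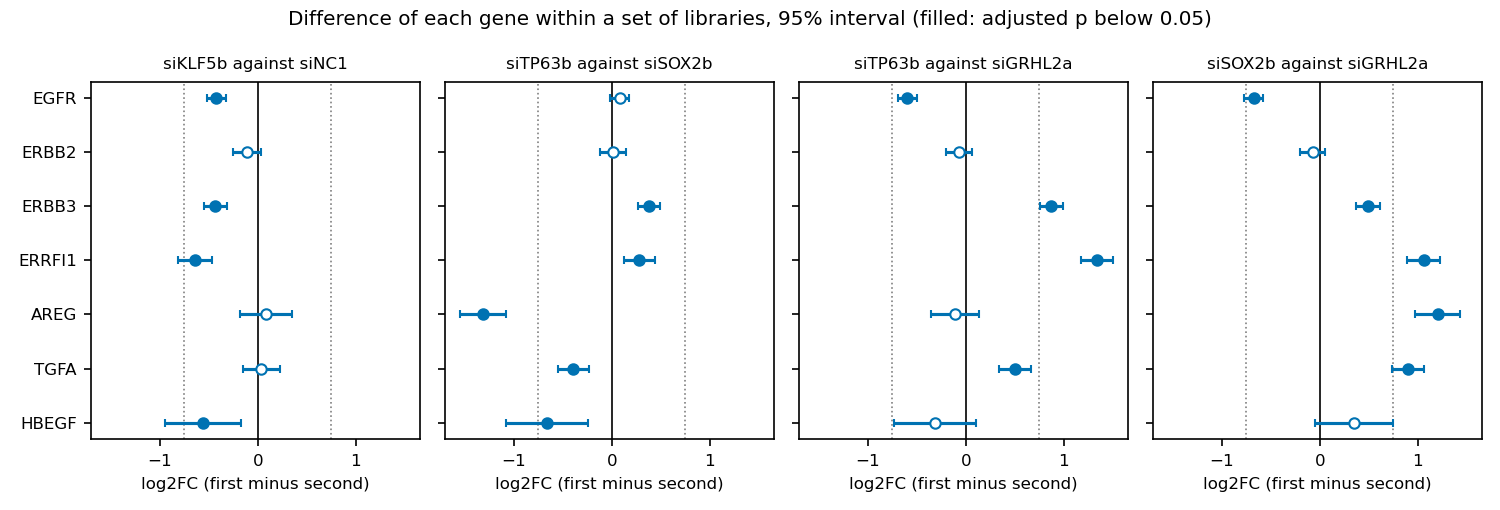
Log2FC of 7 genes of the EGFR family in the 4 comparisons, with points for the estimate, bars for the 95% interval, filled points for an adjusted p below 0.05 and dotted lines at the limits of 0.75. Beyond these lines lie AREG in siTP63b against siSOX2b, ERBB3 and ERRFI1 in siTP63b against siGRHL2a, and AREG, TGFA and ERRFI1 in siSOX2b against siGRHL2a.

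Between the 2 sets of libraries the ranges of 3 of the 8 genes tested did not overlap, where the same held for 28.7% of all genes tested. ERBB2 had 40.6 to 50.8 CPM in siNC1 and siKLF5b and 61.3 to 68.7 CPM in the other 3 groups. TGFA had 15.6 to 17.6 CPM in the first set and 25.1 to 56.3 CPM in the second, and HBEGF had 4.71 to 8.42 CPM in the first and 1.56 to 4.16 CPM in the second. For these 3 genes the knockdown and the set cannot be told apart. The ranges of EGFR, ERBB3, AREG, ERRFI1 and BTC overlapped between the sets.

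The other genes of the pathway were taken from 5 lists with 70 genes in all, each of which was in the table and tested. The lists were chosen with earlier results of these data known, so their counts beside the shares of all genes are descriptions. In siKLF5b against siNC1, 22 of the 70 were lower and 6 were higher at the adjusted p, beside 12.9% and 10.3% of all genes, and 5 were lower DEGs and 0 were higher DEGs, beside 1.37% and 1.89% of all genes. DESeq2 also gave 5 and 0, and 30 were lower and 6 higher at an unadjusted p below 0.05 in edgeR. The 4 DEGs of the ERK output and feedback list (14 genes, of which 8 were lower and 0 higher at the adjusted p) were the phosphatases DUSP4, DUSP5 and DUSP6, which remove phosphate from MAP kinases, and FOSL1, a subunit of AP-1. DUSP6, which is specific for ERK, had 29.4, 29.1 and 30.7 CPM in siNC1 and 16.8, 16.8 and 16.2 CPM in siKLF5b (log2FC -0.84, standard error 0.075, adjusted p = 4.18e-10, edgeR). DUSP4 had 14.8, 16.1 and 17.3 CPM in siNC1 and 7.23, 7.69 and 6.87 CPM in siKLF5b (log2FC -1.14, adjusted p = 2.93e-10, edgeR). In both genes the groups were well apart. A gene that overlaps DUSP6 had 23.1% as many counts. DUSP5 fell from 8.23 ± 0.900 to 3.68 ± 0.695 CPM (SD, n = 3, log2FC -1.17, adjusted p = 1.28e-06, edgeR). FOSL1 fell from 5.43 ± 0.0614 to 2.99 ± 1.06 CPM (log2FC -0.84, adjusted p = 0.000249, edgeR), and was under the limit for a DEG without siKLF5b replicate 2 or replicate 3 (log2FC -0.71 and -0.70). The median log2FC of this list was -0.24, against -0.0097 over all genes. Not every feedback gene was lower: SPRY1, SPRY2, SPRY4, SPRED2, EGR1 and ETV5 did not pass the test.

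The fifth DEG of siKLF5b was CBLC, a ubiquitin ligase of the list of receptor turnover and inhibition, with 5.25 ± 0.832 CPM in siNC1 and 3.10 ± 0.773 CPM in siKLF5b (SD, n = 3, log2FC -0.77, adjusted p = 0.00213, edgeR). Without siNC1 replicate 1, siNC1 replicate 2 or siKLF5b replicate 1 it was under the limit for a DEG (log2FC -0.74, -0.69 and -0.61). In that list 5 of 16 genes were lower and 1 was higher at the adjusted p, to be read against the 12.9% and 10.3% of all genes, as are the next 3 lists. In the list of ligand processing 3 of 8 were lower and 0 higher, and ADAM17, the protease that sheds AREG, HBEGF and TGFA, had a log2FC of -0.47 (adjusted p = 2.93e-08, edgeR). Genes overlap ADAM17, of which IAH1 had 64.4% as many counts. In the list of adaptors and effectors 6 of 26 were lower and 3 were higher. In the list of other receptors and ligands 0 of 6 were lower and 2 were higher, ERBB4 (log2FC 0.56, adjusted p = 0.00173, edgeR) and NRG4. NRG4 overlaps FBXO22, which had 319% as many counts.

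NRG1, a neuregulin that is a ligand of ERBB3, did not pass the test in siKLF5b. It had 2591 ± 114 CPM (SD, n = 3) in siNC1 and 2619 ± 21.5 CPM in siKLF5b, with a log2FC of 0.015 (standard error 0.045, adjusted p = 0.858, edgeR). In the other set, siTP63b had 2903 ± 87.7 CPM, siSOX2b had 3643 ± 41.8 CPM and siGRHL2a had 3682 ± 145 CPM, and NRG1 was lower in siTP63b than in either (log2FC -0.33 and -0.34, adjusted p = 7.15e-07 and 3.91e-07, edgeR). The genes that overlap NRG1 had 0.016% as many counts in all.

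Among the 3 other knockdowns the same lists gave mixed directions. In siTP63b against siSOX2b, 15 of 70 were lower and 21 higher at the adjusted p, beside 15.4% and 16.4% of all genes, with 2 lower DEGs and 5 higher DEGs, beside 2.82% and 3.88%. The higher DEGs were ERBB4 (8.05 ± 0.741 against 3.63 ± 0.808 CPM, log2FC 1.14), EGF (log2FC 1.19), the receptor inhibitor LRIG1 (log2FC 1.03), NRAS (log2FC 1.02) and SPRY1 (log2FC 0.98), and the lower DEGs were DUSP6 (log2FC -1.22) and EGR1 (log2FC -0.98). NRAS varied little within a group, at 94.2, 97.1 and 101 CPM in the siTP63b libraries, 47.8, 47.3 and 49.5 CPM in those of siSOX2b, and 97.8, 95.6 and 95.6 CPM in those of siGRHL2a. Only siSOX2b was low in NRAS among these 3 groups (adjusted p = 2.33e-16 against siTP63b and 1.08e-15 against siGRHL2a, edgeR). EGR1 had 0.826 ± 0.399 and 1.61 ± 0.202 CPM and lost its call without siTP63b replicate 1 or replicate 2 (adjusted p = 0.0542 and 0.0702). SPRY4 became a lower DEG without siTP63b replicate 1 or 2 or siSOX2b replicate 2 (log2FC -0.78, -0.78 and -0.75), and ETV4 without siTP63b replicate 3 (log2FC -0.83). LRIG1 overlaps SLC25A26, which had 166% as many counts.

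In siTP63b against siGRHL2a, 11 of 70 were lower and 28 higher at the adjusted p, beside 13.4% and 13.6% of all genes. There was 1 lower DEG, EGR1, and there were 5 higher DEGs, EGF, LRIG1, SPRY1, SPRY2 and FOSL1, beside 3.21% and 2.18% of all genes. The CPM of FOSL1 was 23.6, 20.3 and 26.4 in siTP63b, then 27.6, 29.1 and 27.3 in siSOX2b, and 13.3, 13.3 and 11.8 in siGRHL2a, so that siGRHL2a was the low group. In the ERK output and feedback list 10 of 14 were higher in siTP63b and 3 were lower, with a median log2FC of 0.47. EGR1 was not a DEG in DESeq2 (adjusted p = 0.063), and was lost without siTP63b replicate 1 or replicate 2 or siGRHL2a replicate 2 (adjusted p = 0.155, 0.20 and 0.244). In the fit of the 6 compared libraries its adjusted p was 0.108. DUSP5 lay at the limit for a DEG (log2FC 0.75) and was past it in DESeq2 (log2FC 0.76) and without siTP63b replicate 1, siTP63b replicate 2, siGRHL2a replicate 1 or siGRHL2a replicate 3 (log2FC 0.82, 0.84, 0.82 and 0.77). EGF, with 3.16 ± 0.975 and 1.76 ± 0.528 CPM, was lost without siTP63b replicate 2 or siGRHL2a replicate 2 (log2FC 0.63 and 0.62). In siSOX2b against siGRHL2a, 11 of 70 were lower and 15 higher, beside 12.7% and 11.8% of all genes. There were 2 lower DEGs, NRAS (log2FC -1.0) and PIK3R2 (log2FC -0.81), and 4 higher DEGs, beside 2.27% and 1.05% of all genes. The higher DEGs were SPRY4 (log2FC 1.33, adjusted p = 3.59e-09, edgeR), FOSL1 (log2FC 1.13), and the ETS factors ETV4 and ETV5 (log2FC 1.02 and 0.84), all of the ERK output and feedback list, where 8 of 14 were higher and 1 was lower and the median was 0.37. PIK3R2, ETV4, SPRY4 and ETV5 overlap other genes, of which the most counted had 192%, 871%, 268% and 37.9% as many counts. PIK3R2 was under the limit for a DEG without siSOX2b replicate 2 (log2FC -0.73).

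**Figure D4:**
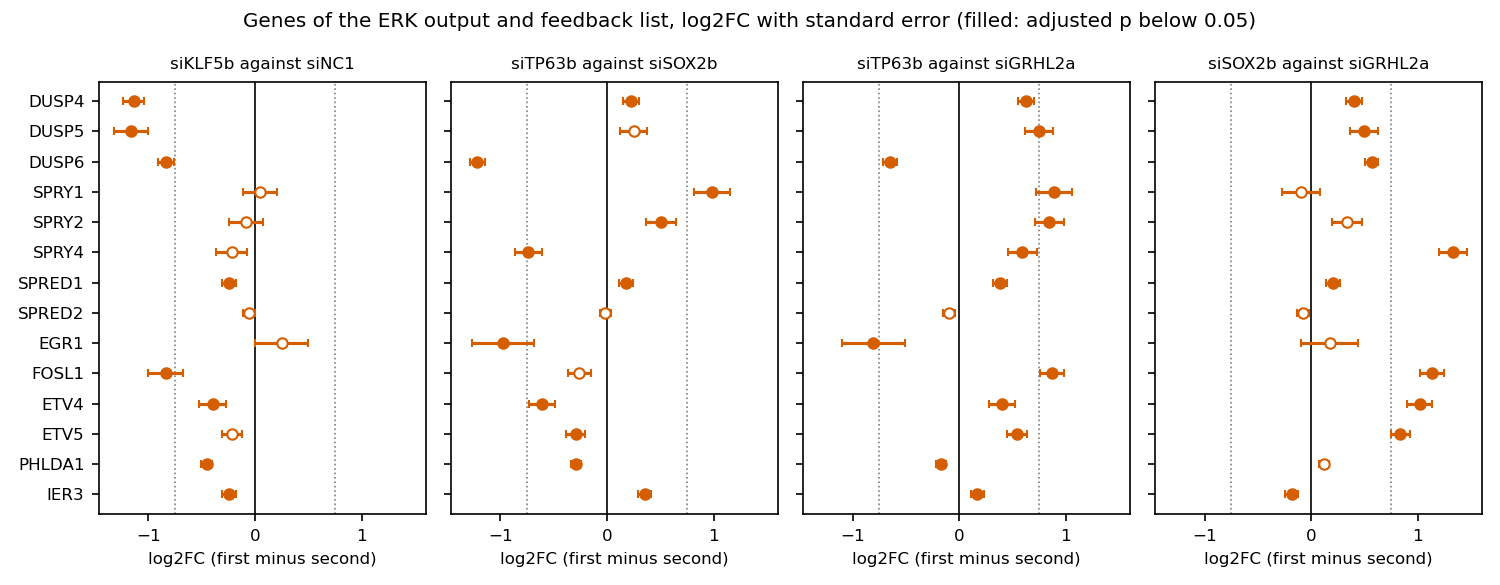
Log2FC of the 14 genes of the ERK output and feedback list in the 4 comparisons, with points for the estimate, bars for the standard error, filled points for an adjusted p below 0.05 and dotted lines at the limits of 0.75. In siKLF5b against siNC1 the 8 filled points all lie below 0, while siTP63b against siSOX2b has 6 below and 5 above 0.

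The gene whose pattern was most like that of each member was sought by Pearson's r of log2 CPM over the 15 libraries, after the mean of each set of columns was subtracted, among about 11820 genes with a mean of at least 10 CPM. It was NDST1 for EGFR (r = 0.975), EZR for ERBB3 (r = 0.964), RPL13A for ERBB2 (r = 0.89), NUP58 for ERRFI1 (r = 0.979), DNAJB11 for AREG (r = 0.964), FBXW7 for TGFA (r = 0.951), DUSP14 for HBEGF (r = 0.907) and DCLRE1C for BTC (r = 0.816). The 15 libraries share 5 groups, their depth and their scaling, and a high r is easily found among so many genes, so these values are descriptions.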

How the data were processed

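Polyadenylated RNA of HCC95 cells was sequenced as paired-end reads in 15 libraries. The labels list the molecule as genomic DNA, while their protocol describes RNA, and the data were treated as RNA-seq. Per the labels and the study's methods, the authors aligned the reads to hg38 with HISAT2 2.2.1 and counted uniquely aligned reads on Gencode release 40 with featureCounts 2.0.1, and the deposited values are raw counts without normalization. The counted length of all 61544 genes was the whole span, so introns were included. All 15 count columns were matched by name.

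From the counts, TMM factors, filterByExpr by group and 1 quasi-likelihood fit of all 15 libraries were computed with edgeR 4.0.16 in R 4.3.3, with Benjamini-Hochberg adjustment over 25108 genes. DEGs had to pass 0.05 on the adjusted p and 0.75 on the absolute log2FC. CPM used the TMM-scaled library size. DESeq2 1.42.0, RLE and upper-quartile factors, other filters, halved counts in 9 libraries, other thresholds, fits of the compared libraries alone, a replicate block and each library left out were the alternatives. The steps were tested on simulated data.

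The members and lists were chosen with earlier results of these data known. Named were all members, the targeted genes, up to 6 DEGs per other list by adjusted p, and the gene most like each member. NRG1, NRG4, ADAM17, DUSP5 at its limit, ETV4 and SPRY4 without single libraries, and the genes named as not passing were added after their values were seen. Counting intervals were not computed, since replicate spread was used. The depth was 15655495 to 34229063 counts per library. One marker gene is not reported here.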

Additional observations from a re-analysis of the deposited data

How the results depend on the processing

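With no limit on log2FC, 4, 5, 4 and 5 members and 28, 36, 39 and 26 of the other pathway genes were called in siKLF5b against siNC1, siTP63b against siSOX2b, siTP63b against siGRHL2a and siSOX2b against siGRHL2a. In the same order, 12.9%, 15.4%, 13.4% and 12.7% of all genes were then lower, and 10.3%, 16.4%, 13.6% and 11.8% were higher. With the limit at 1, there were 2 other pathway genes in siKLF5b against siNC1, 1 member and 0 other pathway genes in siTP63b against siGRHL2a, and 3 other pathway genes in siSOX2b against siGRHL2a. In siTP63b against siSOX2b, SPRY1 and EGR1 were not called at that limit (log2FC 0.98 and -0.98). The share of all genes at the limit of 1 is not given here. In these settings the counts change by definition, since only the limit was changed. ERBB3 in siTP63b against siGRHL2a and TGFA in siSOX2b against siGRHL2a were not called at that higher limit. With each library left out in turn, 1 to 2 members were called in siTP63b against siSOX2b, HBEGF or BTC being added, and 3 to 4 in siSOX2b against siGRHL2a. Leaving out a library also turned the direction of small log2FC that had not passed. ERBB2 ranged from -0.17 to 0.0025 in siKLF5b against siNC1 and from -0.035 to 0.030 in siTP63b against siSOX2b. TGFA ranged from -0.0059 to 0.057 in siKLF5b against siNC1, AREG from -0.20 to 0.024 in siTP63b against siGRHL2a, and BTC from -5.32 to 0.39 in siSOX2b against siGRHL2a. Of 529 values under the alternatives, 504 kept their direction and were a DEG or not as before, 15 became DEGs, 2 lost the call and 8 changed sign. Apart from HBEGF and BTC with a library left out, those that became DEGs did so by removal of the limit on log2FC. The adjusted p on its own crossed 0.05 in 11 values, all with a library left out. CPM per kilobase of the whole span, chosen after seeing the data, changed the order of the members below EGFR.

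The replicate numbers of the labels gave little sign of pairing: the correlation of same-numbered libraries was from -0.031 to 0.035. In siSOX2b against siGRHL2a, however, the same-numbered library was the best match of each library (r = 0.0184, 0.0214 and 0.0287). With the replicate block the 4 comparisons called 0, 1, 2 and 3 members, as without it, and 805, 1667, 1345 and 825 genes in all against 818, 1682, 1354 and 833. The totals moved more with halved counts in 9 libraries, to 1035, 1454, 1200 and 694 of 22810 genes tested. The low-count ligands lay near the floor: 3 counts are up to 0.192 CPM, and EREG and EPGN had at most 4 counts. Whether depth or a lack of these RNAs gave such counts was not tested.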
